A study of Mus musculus with 6 samples.

Results

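The cytosolic ribosomal protein genes were examined in 4T1-T VM cells sorted by their uptake of acetylated low-density lipoprotein (acLDL). Members were chosen by symbol alone, as the rows of the deposited comparison named Rpl or Rps with a number, together with Rpsa, Rplp0, Rplp1 and Rplp2. The rule found 84 genes of the 15973 protein-coding genes compared, 52 of the large subunit and 32 of the small subunit. Of these, 46 and 31 are core genes and 7 are paralogues with a related sequence (Rpl3l, Rpl7l1, Rpl10l, Rpl22l1, Rpl36al, Rpl39l and Rps27l). Rpl3l, Rpl10l and Rpl39l did not pass the filter on low counts, which left 81 genes that were tested. No measured value entered the rule.

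4T1-T was derived from 4T1, a mouse mammary carcinoma cell line, as a sub-clone proficient in vasculogenic mimicry (VM), the formation of vessel-like channels by tumour cells. All cells in the experiment came from this clone, were starved of serum overnight in Opti-Mem with BSA and received Alexa-488 labelled acLDL at 10 ug/mL for 4 h. The uptake protocol then returns cells to complete medium for 1 h before imaging, and whether the sorted cells had this hour is not stated. Endothelial cells and some macrophages take up acLDL. Cells were then gated on fluorescence, the brightest 25% as acLDL-high and the dimmest 25% as acLDL-low, and polyA RNA of 3 replicates of each population was sequenced, which gave 6 libraries of 70263372 to 94216786 counts. The labels number the replicates and do not say whether they were separate cultures, so p-values measure the spread between these samples only. As all cells had been starved, no unstarved state was measured here. The labelled cell type was visible in the data. All 8 mammary epithelial markers were detected, with a summed level of 3410 to 5623 CPM (counts scaled to library size) in acLDL-low and 3866 to 6009 CPM in acLDL-high cells. All 8 had a log2 fold change above 0, with a median of 0.13. Of these, 2 (25%), Cldn3 and Cldn4, were called higher in acLDL-high cells by edgeR, against 3.43% of all genes tested. DESeq2 called 3, against 4.02% in either direction, and 5 had an unadjusted edgeR p under 0.05, against 19.4%. The part of this in the results was not tested. Of 8 markers written for each other cell type, the 6 endothelial markers in the table summed to at most 2.64 CPM, the 5 macrophage markers to at most 12.3 CPM and the 5 fibroblast markers to at most 43.3 CPM in any library.

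A cytosolic ribosome holds a large subunit, which joins amino acids, and a small subunit, which reads the mRNA, and nearly every ribosomal protein is present in a single copy per ribosome. Cells therefore make these proteins in matched amounts. Their mRNAs begin with a terminal oligopyrimidine (TOP) tract, a C followed by further C and T bases, through which mTOR signalling and LARP1 set how well the mRNA is translated. This control acts on translation and on the storage of the mRNA, so an mRNA level does not report it. MYC is known to raise transcription of ribosomal protein genes, and free RPL5, RPL11 and RPS7 bind MDM2 and so stabilise p53 when ribosome assembly is disturbed.

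The sequence around the annotated start sites is described before the levels are compared. RefSeq windows on GRCm38.p6, from 250 bases before to 50 bases after an annotated start, were available for 64 of the 84 genes (76 windows). Each line gives 30 bases on the sense strand, 5′ to 3′, with the longest run of pyrimidines that begins with C in capitals. The run was sought anywhere from 50 bases before to 50 bases after the annotated start, and the lines do not mark the start. Where runs were equally long the first was marked, so in Rps27l another run of 9 bases follows in lower case. The set holds Rpl13, which had the lowest fold change, 4 abundant or regulatory members, 2 core genes with their paralogues, and Rpl24, in whose window no run was found within 50 bases of the start. The Rpl24 line covers the 10 bases before the start and the 20 bases after it.
Rpl13 (chr8:123102326-123102355, plus strand): tgacgtcaCTTCCCTTTCgcctgattttga
Rps6 (chr4:86857347-86857376, minus strand): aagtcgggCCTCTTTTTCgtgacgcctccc
Rpl11 (chr4:136053358-136053387, minus strand): ccggaagtCTCCCTCTCTCTTCCTgttctc
Rps12 (chr10:23787180-23787209, minus strand): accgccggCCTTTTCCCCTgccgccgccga
Rpl4 (chr9:64173405-64173434, plus strand): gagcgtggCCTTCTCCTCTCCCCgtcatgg
Rps27 (chr3:90213629-90213658, minus strand): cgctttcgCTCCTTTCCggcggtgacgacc
Rps27l (chr9:66946056-66946085, plus strand): cgcctccaCTCCTCTCCactcctccccgcc
Rpl22 (chr4:152325679-152325708, plus strand): ccgtctgaCTCCTCCCTTTCCCgacagccg
Rpl22l1 (chr3:28805503-28805532, plus strand): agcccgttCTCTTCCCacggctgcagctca
Rpl24 (chr16:55966265-55966294, plus strand): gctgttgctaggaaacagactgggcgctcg

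A run of at least 8 pyrimidines that begins with C lay within 50 bases of the start in 59 of the 76 windows (77.6%), against 28.8% of all 32851 RefSeq windows and 27.5% of the windows of genes tested here. The paralogues Rps27l and Rpl22l1 carried such a run as their core partners did, of 9 bases in Rps27l and Rps27 and of 8 bases in Rpl22l1 against 14 in Rpl22. Rps27l and Rpl22 have 2 windows each, and 1 of the 2 holds the run. The longest of the printed runs were those of Rpl11 (16 bases) and Rpl4 (15 bases). In the whole 300-base window, on either strand, CCGGAAG, the core of sites bound by ETS factors, was found in 35.5% of the ribosomal protein windows and 8.86% of all windows, AAGATGG, part of the YY1 motif, in 15.8% and 6.34%, and TATAAA in 9.21% and 13.6%. Windows of tested genes held the ETS core in 17.1%, AAGATGG in 7.04% and TATAAA in 7.25%. CCGGAAG and AAGATGG can share the letters AAG, and the reverse complement of the ETS core begins with pyrimidines that can be part of a run. A match describes letters in a window and not a bound site. A run may lie before or after the start, so it need not be a TOP tract, which begins the mRNA.

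The first comparison asked whether cells with high uptake put a different part of their mRNA into ribosomal proteins. The difference was small beside the spread between replicate numbers. The 84 genes together took 3.61%, 4.35% and 3.29% of the protein-coding counts in acLDL-low replicates 1, 2 and 3. In acLDL-high replicates 1, 2 and 3 they took 3.52%, 4.19% and 3.27%. With coding totals as the denominator, the share was lower in acLDL-high cells in all 3 replicate numbers, by a mean of 0.090 percentage points (SD 0.065, n = 3 differences), while the group means were 3.75% ± 0.541 and 3.66% ± 0.478 (SD, n = 3), so the groups overlapped and replicate 2 was the highest of both. Differences within a number were -0.090, -0.155 and -0.026 percentage points. The direction in numbers 1 and 3 depended on the scaling. Over TMM-scaled library sizes, the scale of the fold changes that follow, the differences were 0.020, -0.179 and 0.011 percentage points, with a mean of -0.049, so acLDL-high cells were lower in number 2 alone. Large subunit genes took 1.36 to 1.37 times the counts of small subunit genes in every library, so the balance of the subunits was the same to within that range. In bulk samples, fewer cells of a type and less RNA per cell cannot be told apart, and a share says nothing about the total RNA of a cell.

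**Figure D1:**
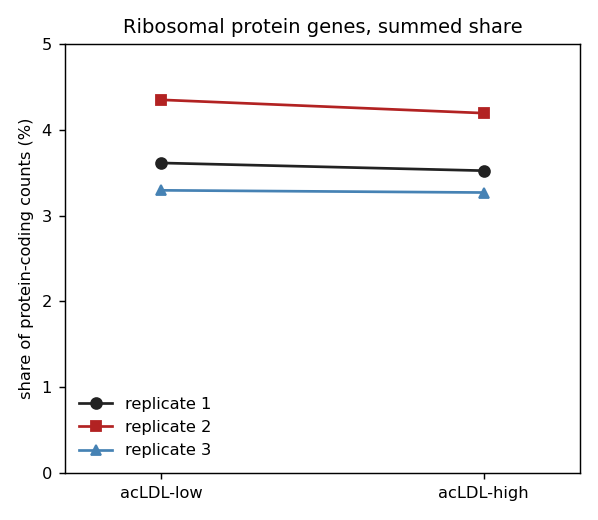
Summed share of protein-coding counts (%, vertical axis from 0) taken by the 84 ribosomal protein genes in each library, with acLDL-low and acLDL-high libraries of the same replicate number joined by a line. Replicate 2 stands above the others in both populations, at 4.35% and 4.19%, and each line falls by 0.026 to 0.155 percentage points on this scale, where TMM-scaled sums fall in replicate 2 alone.

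Gene by gene, no ribosomal protein gene passed the test. With edgeR's quasi-likelihood test and the replicate number as a block, 0 of the 81 tested genes had a Benjamini-Hochberg adjusted p under 0.05, where 4.75% of the 12572 genes tested did (3.43% higher and 1.32% lower in acLDL-high cells). At an unadjusted p under 0.05 the count was 1 of 81, against 19.4% of all genes. DESeq2 with the same block also called 0 of 81, against 4.02% of all genes, with 1 gene at an unadjusted p under 0.05. The smallest adjusted p from edgeR was 0.169.

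The fold changes were small and narrow. The log2 fold change of acLDL-high over acLDL-low had a median of -0.016 over the 81 genes, and 0.0017 over all genes tested. The middle part of the 81 genes, between the quartiles, lay from -0.033 to 0.0071, and that of all genes from -0.072 to 0.075. By sign, 57 genes were below 0 and 24 above, and 70.4% below 0 compares with 49.4% of all genes. The direction of this median was not stable, since it turned to 0.0036 without replicate 2, with 43 genes above 0 and 38 below. An absolute log2 fold change over 0.1 was found for 1 of the 81 genes and for 38.4% of all genes. Of the 95% confidence intervals, 78 of 81 lay wholly within -0.2 and 0.2, a change of at most 1.15-fold, against 48.2% of all genes. The 3 that reached beyond were Rpl13, Rpl24 and Rpl36al. The outermost bounds of any gene were -0.239 and 0.254. The members are deeply sequenced, with a median level of 378 CPM against 30.1 CPM for all genes, and their median interval reached 0.094 to either side against 0.120.

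**Figure D2:**
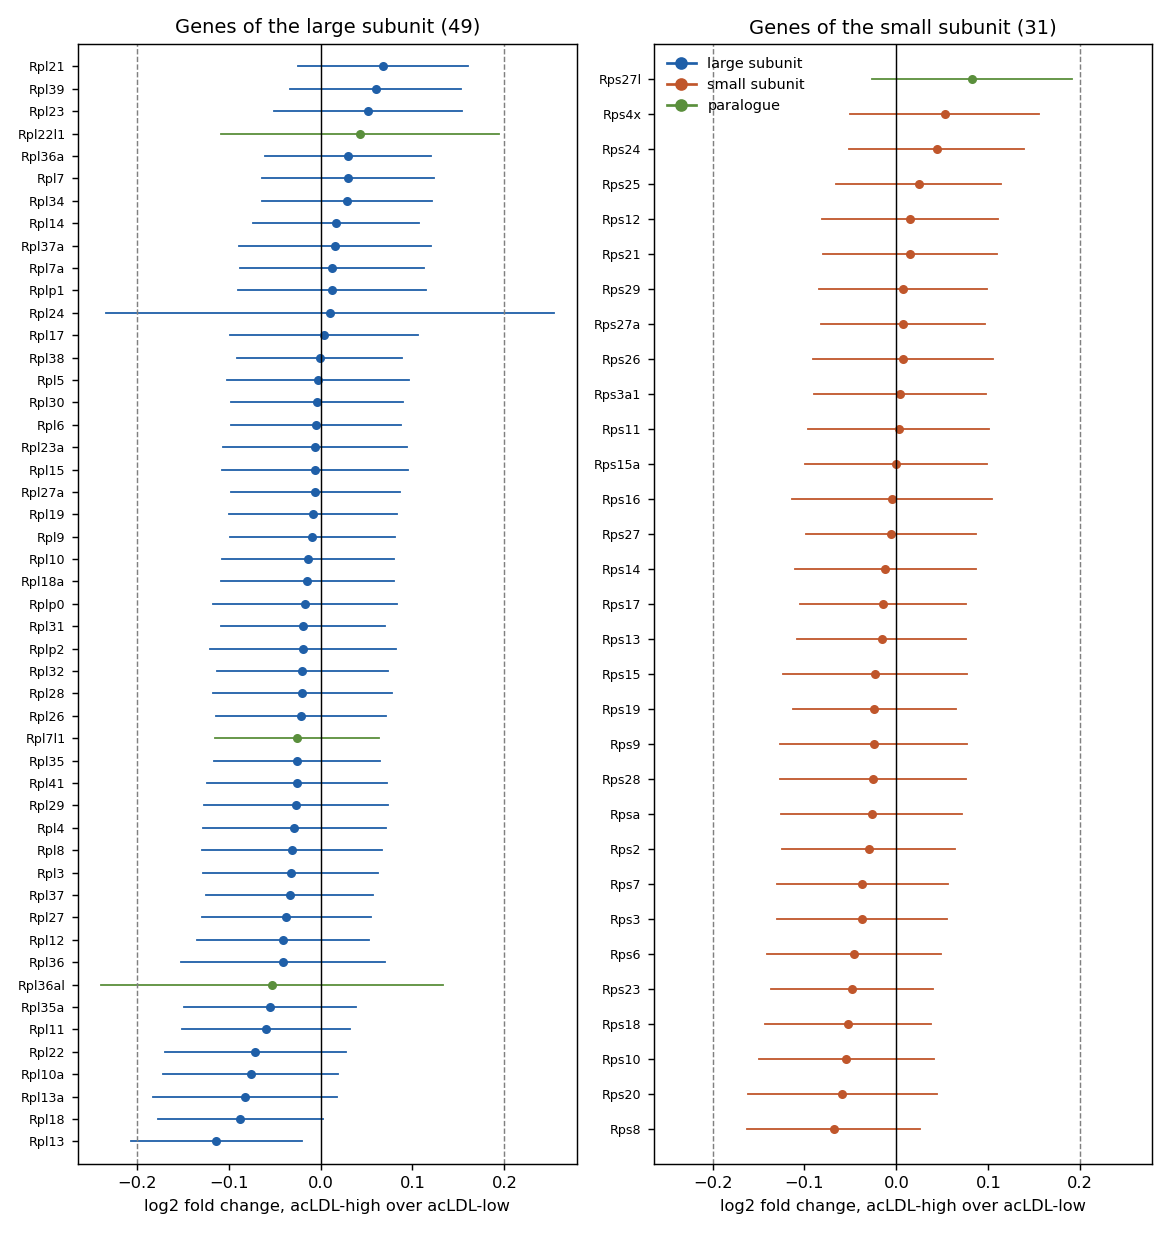
Log2 fold change (horizontal axis) of 80 of the 81 tested ribosomal protein genes, each with its 95% interval from edgeR's quasi-likelihood fit, sorted by value within the large and the small subunit, with dashed lines at -0.2 and 0.2. Points run from -0.113 for Rpl13 to 0.082 for Rps27l, and 1 interval, that of Rpl13, does not cross 0.

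Rpl13 (ENSMUSG00000000740, chromosome 8 of GRCm38, 123102350 to 123105244), a protein of the large subunit, had the lowest fold change. It was at 365, 472 and 342 CPM in acLDL-low replicates 1, 2 and 3 and at 353, 423 and 313 CPM in acLDL-high replicates 1, 2 and 3. Each acLDL-high library was below its acLDL-low partner, but the groups overlapped, because replicate 2 was the highest of both. The log2 fold change was -0.11 (standard error 0.043, 95% interval -0.206 to -0.020, edgeR adjusted p = 0.169), or 0.924-fold, and the differences within replicate numbers were -0.050, -0.161 and -0.129. The next lowest genes were also of the large subunit, Rpl18 at -0.087 (edgeR adjusted p = 0.273), Rpl13a at -0.082 (0.362) and Rpl10a at -0.076 (0.380).

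The highest fold change belonged to Rps27l (ENSMUSG00000036781, chromosome 9, 66946086 to 66949516), the paralogue of Rps27 that is known as a target of p53. It was at 43.9, 55.3 and 28.4 CPM in acLDL-low replicates 1, 2 and 3 and at 43.4, 58.6 and 32.2 CPM in acLDL-high replicates 1, 2 and 3. Replicate 1 was slightly lower and replicates 2 and 3 slightly higher in acLDL-high cells, and the groups overlapped. The log2 fold change was 0.082 (standard error 0.050, 95% interval -0.027 to 0.191, edgeR adjusted p = 0.411). It was followed by Rpl21 at 0.068 (adjusted p = 0.420), Rpl39 at 0.060 (0.490), which sits at the exit tunnel of the large subunit, and Rps4x at 0.053 (0.597), the X-linked small subunit gene. These ranks were not stable. Rps27l was at 0.037 without replicate 3 and at 0.13 without replicate 1, and the highest gene was Rplp1 (0.057) without replicate 3 and Rps4x (0.096) without replicate 2, while Rpl13a (-0.13) took the place of Rpl13 (-0.10) as the lowest without replicate 3.

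Members that have been given roles beyond the ribosome, or that mark a part of it, lay between -0.082 and 0.013 on the log2 scale. The lowest of them was Rpl13a at -0.082, a gene also known for the GAIT complex. The 3 proteins known for binding MDM2 were at -0.0028 (Rpl5), -0.059 (Rpl11) and -0.037 (Rps7) on the log2 scale, with 95% intervals that reached from -0.151 to 0.096 over the 3 genes. The stalk, which recruits elongation factors, was at -0.017 (Rplp0), 0.013 (Rplp1) and -0.019 (Rplp2). Rps6, whose protein is the substrate of S6 kinase, was at 496, 573 and 478 CPM in acLDL-low replicates 1, 2 and 3 and at 472, 537 and 486 CPM in acLDL-high replicates 1, 2 and 3, overlapping ranges with a log2 fold change of -0.046 (95% interval -0.141 to 0.048, edgeR adjusted p = 0.614). Rpsa, also named the laminin receptor, was at -0.027, Rps19, mutated in Diamond-Blackfan anaemia, at -0.024, and Rps27a, which is made as a fusion with ubiquitin, at 0.0072. Rpl38, known for selective translation of Hox mRNAs, was at -0.00081 and Rpl41, the shortest ribosomal protein, at -0.026. The edgeR adjusted p-values of these genes ran upward from 0.362, the value of Rpl13a, followed by 0.485 for Rpl11.

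The subunits had alike medians. The 46 core genes of the large subunit had a median log2 fold change of -0.015 (34 below 0, 12 above) and the 31 core genes of the small subunit one of -0.016 (21 below, 10 above), and the 4 paralogues that passed ranged from -0.053 to 0.082.

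Paralogues stood far below their core partners in level. Levels are given per kb of the principal mRNA, which allows different genes to be compared as far as the annotated length applies. Rpl7 was at a mean of 857 CPM per kb and Rpl7l1 at 44.6, Rpl22 at 147 and Rpl22l1 at 29.0, Rpl36a at 373 and Rpl36al at 5.54, and Rps27 at 849 and Rps27l at 87.4. In each of these pairs every library of the core gene was above every library of the paralogue. Rpl3l, the heart and muscle form of Rpl3, Rpl10l, the testis form of Rpl10, and Rpl39l, a testis form of Rpl39, had 0 to 4 counts in any library, where 3 counts correspond to at most 0.043 CPM, while Rpl3, Rpl10 and Rpl39 were at 533, 552 and 127 CPM per kb. Rps4l was not among the genes compared. Neither partner of any pair passed the test, and Rpl22 (-0.071), whose protein is known to repress Rpl22l1, and Rpl22l1 itself (0.043) had 95% intervals of -0.170 to 0.028 and -0.109 to 0.194. A difference between partners was not tested. Rpl36al shares 332 of its 1353 exonic bases on the same strand with Gm49383, which had 0 or 1 counts in each library. The part of this overlap in the level of Rpl36al was not tested.

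**Figure D3:**
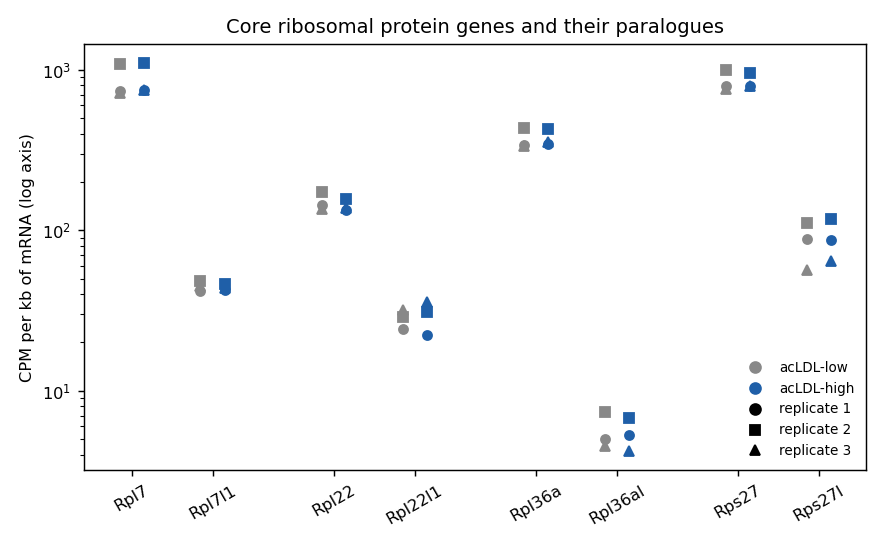
CPM per kb of mRNA (log axis) of 4 core ribosomal protein genes and their paralogues in the 6 libraries, with acLDL-low in grey and acLDL-high in blue and a symbol for each replicate number. The paralogues lie below their partners in all libraries, from 29.0 against 147 CPM per kb for Rpl22l1 and Rpl22 to 5.54 against 373 for Rpl36al and Rpl36a, and grey and blue points of a gene overlap. Exons of Rpl36al overlap Gm49383 on the same strand, and the part of this in its level was not tested.

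Over all members that passed, the median level was 444 CPM per kb against 9.75 for all genes tested with an mRNA length, and 40 of the 100 highest genes were ribosomal protein genes. The highest were Rplp1 (2460 CPM per kb), the stalk protein, Rps12 (1373) and Rpl4 (1359), and their values ran from 1852 to 3078, from 1155 to 1713 and from 1085 to 1661 CPM per kb over the 6 libraries. Rps12 and Rpl4 overlapped in range, while Rplp1 lay above them in every library. The lowest were Rpl24 (5.04 CPM per kb), Rpl36al (5.54) and Rpl22l1 (29.0). Rpl24 is a core protein of the large subunit, and the next lowest core gene, Rps15a, which was named for its rank, was at 49.2 CPM per kb. The mRNA used for Rps15a had 5179 bases, against a member median of 886. Before division by length Rps15a was at 255 CPM, above core genes such as Rpl29 at 57.5 CPM, so its rank depends on that length. Rpl24 had 2.97, 4.00 and 3.24 CPM in acLDL-low replicates 1, 2 and 3 and 3.14, 3.91 and 3.22 CPM in acLDL-high replicates 1, 2 and 3. In the GENCODE M21 annotation, 484 of its 1030 exonic bases overlap Gm28037 on the same strand, which was listed with 0 counts in all 6 libraries, and 81.7% of its 50-base stretches occur in other genes' transcripts. Rpl13a, at 71.5 CPM per kb, shares exonic bases on the same strand with Gm45713, also with 0 counts, and Rpl36al does so with Gm49383. The part of overlap and of shared sequence in these levels was not tested.

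Shared sequence is common in this family, whose processed pseudogenes are many. A stretch of 50 bases, the length of a read, was counted as shared where it also occurs in the annotated transcript of another gene. The share had a median of 49.3% per member mRNA and was over 50% in 41 of the 84 genes. Rps2 had the most relatives, 33 genes that each hold at least 10% of its stretches. Relatives outside the compared table, 409 genes, took counts that amounted to 4.94% to 5.03% of those of the members in every library, so this proportion was alike in both populations. Levels of members with under 10% of their stretches shared (7 tested genes) had a median of 166 CPM per kb, against 448 for those with 10% to 50% (33 genes) and 485 for those with more (41 genes). Median log2 fold changes of the same classes were -0.038, -0.0059 and -0.016. Counts of single members with close copies carry this uncertainty.

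The ribosomal protein genes differed more between replicate numbers than between the uptake gates. The level of 80 of the 81 genes, averaged over both populations, was highest in replicate 2, which holds for 39.8% of all genes. The exception was Rpl22l1, highest in replicate 3. Relative to each gene's own mean on the log2 scale, the median member stood at -0.108 in replicate 1, 0.261 in replicate 2 and -0.153 in replicate 3, where the medians of all genes were all at -0.0036 to -0.0040. The spread between replicate numbers was not larger than that of other genes, with a median SD of 0.236 on the log2 scale against 0.238, but the members moved in the same direction. This SD exceeded the absolute log2 fold change in 81 of 81 members and in 85.8% of all genes. The median absolute log2 fold change was 0.026 in the members and 0.073 in all genes.

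Rps2, which was chosen for its value here, shows the size of this difference. It was at 767, 1420 and 700 CPM in acLDL-low replicates 1, 2 and 3 and at 770, 1358 and 684 CPM in acLDL-high replicates 1, 2 and 3. Replicate 2 was higher by 1.00 on the log2 scale than replicate 3 as the mean of both populations, the widest range of any member, while the log2 fold change between populations was -0.030. Rpl39 had the narrowest range, 0.154. The median range over members was 0.449. The counts of the 13 protein-coding genes of the mitochondrial genome were lowest in replicate 2, at 5.86%, 3.60% and 5.03% of coding counts in acLDL-low and 6.00%, 3.61% and 5.21% in acLDL-high replicates 1, 2 and 3. Their part in the result was not tested.

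**Figure D4:**
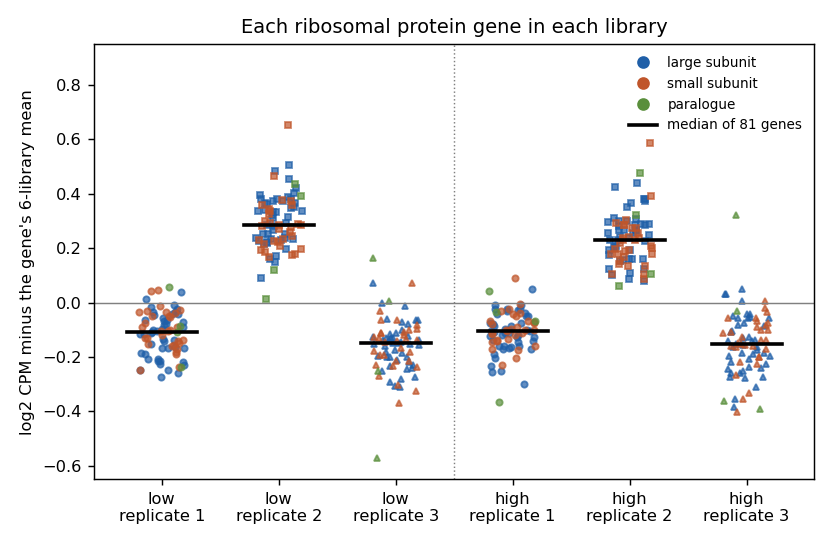
Log2 CPM of each of the 81 ribosomal protein genes in each library relative to the gene's mean over the 6 libraries (vertical axis), by population and replicate number, with the median of the genes as a black bar. Both replicate 2 libraries lie above 0 and the libraries of replicates 1 and 3 mostly below it, whichever population they hold.

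Within replicate numbers the difference between populations changed sign for most members. The median over the 81 genes was 0.011 in number 1, -0.060 in number 2 and 0.0056 in number 3, where the medians of all genes were 0.015, -0.0075 and -0.0002. In number 2, 68 of the 81 genes were lower in acLDL-high cells, while in numbers 1 and 3, 49 and 44 were higher. The sign was the same in all 3 numbers for 16 of the 81 genes (19.8%), against 40.4% of all genes. Of the 16, 11 were lower in acLDL-high cells and 5 higher, and the latter, named for their signs, were Rpl7, Rpl21, Rpl39, Rps24 and Rps25. Spearman's rho between the log2 fold change and the GC content of the gene's longest annotated transcript was -0.287 across the 81 genes and -0.150 across all tested genes. It is given as a description because genes share libraries and are not independent.

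Fau and Rack1, which the symbol rule leaves out, were not called. Fau, whose product holds the small subunit protein eS30, was at -0.063 (edgeR adjusted p = 0.445), and Rack1, a scaffold on the small subunit, at -0.018 (0.880).

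The next comparison set the ribosomal protein genes beside the rest of the apparatus that makes and uses ribosomes, in lists written from general knowledge. Earlier results of these data were known when the lists were written, so their shares of called genes are a description and no independent test. Few of these genes were called. Tested were 7 elongation factors, 20 other genes with TOP mRNAs, 19 genes of RNA polymerase I and 77 mitochondrial ribosomal protein genes. None of them had an edgeR adjusted p under 0.05, against 4.75% of all genes. At an unadjusted edgeR p under 0.05 the lists held 0, 0, 3 and 3 genes, against 19.4% of all genes. DESeq2 called 0 in each list, against 4.02% of all genes. In lists of 7, 19 or 20 genes, 0 called lies close to the shares of all genes called. In the same order, the lists had median log2 fold changes of 0.016, -0.0025, -0.033 and 0.0042. Values spread more widely than those of the ribosomal protein genes in RNA polymerase I (-0.17 to 0.098) and the mitochondrial ribosomal proteins (-0.12 to 0.14). The TOP list shares Fau, Rack1 and translation factors with other lists. In the 37 initiation factors, 1 gene was called (2.7%, against 4.75% of all genes), with a median of -0.010. Eif4ebp1, the mTOR target that holds back the cap-binding protein eIF4E, fell by 0.22 on the log2 scale (edgeR adjusted p = 0.013, lower in 3 of 3 numbers). Among 66 genes of ribosome biogenesis and the nucleolus, which cut, modify and assemble rRNA, 50 were below 0 and 16 above with a median of -0.046, 13 had an unadjusted p under 0.05, a share near the 19.4% of all genes, and 1 was called (1.52%, against 4.75%). This was Noc2l, an assembly factor of the large subunit that also acts on p53, at -0.16 (adjusted p = 0.047, lower in 3 of 3 numbers). Without replicate 3 neither gene was called (adjusted p = 0.131 for Eif4ebp1 and 0.284 for Noc2l), and without replicate 1 Noc2l was not (0.052).

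The list of Myc, p53 and mTOR genes around ribosome production held the most calls, 6 of 21 tested (28.6%, against 4.75% of all genes), 4 lower and 2 higher in acLDL-high cells, and the list's median was -0.043. Myc (ENSMUSG00000022346, chromosome 15, 61985391 to 61990374), the transcription factor known to drive ribosomal protein genes, was at 458, 567 and 341 CPM in acLDL-low replicates 1, 2 and 3 and at 351, 437 and 289 CPM in acLDL-high replicates 1, 2 and 3. Each acLDL-high library was below its partner, and the groups overlapped across numbers. Myc fell by 0.33 on the log2 scale, to 0.793-fold (standard error 0.045, edgeR adjusted p = 0.0011, lower in 3 of 3 numbers). Its 95% interval, -0.432 to -0.237, may be set beside the members' median of -0.016 and lowest value of -0.113 in the same libraries. The difference between Myc and the members was not itself tested.

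Ddit4, an inhibitor of mTOR induced by stress, was at 74.3, 109 and 86.3 CPM in acLDL-low and at 54.2, 94.5 and 60.3 CPM in acLDL-high replicates 1, 2 and 3, and fell by 0.39 on the log2 scale (edgeR adjusted p = 0.0016, lower in 3 of 3 numbers). Without replicate 3 it was not called (adjusted p = 0.061). Trp53, the p53 gene, fell by 0.25 (adjusted p = 0.0077, lower in 3 of 3 numbers), and called genes outside the naming rule were Sesn2 among the lower and Deptor, an inhibitor of mTOR, and Mxd1, an antagonist of MYC, as the 2 higher genes. Without replicate 3, the calls of Myc and Trp53 were left, 2 of the 6, and without replicate 1 Mxd1 (adjusted p = 0.072) and Sesn2 (0.131) were not called. The p53 targets Mdm2 and Cdkn1a were at 0.057 (adjusted p = 0.504) and 0.15 (adjusted p = 0.377), and Cdkn1a differed by 0.43, -0.24 and 0.26 in numbers 1, 2 and 3. Levels of mRNA do not show the activity of mTOR or p53.

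**Figure D5:**
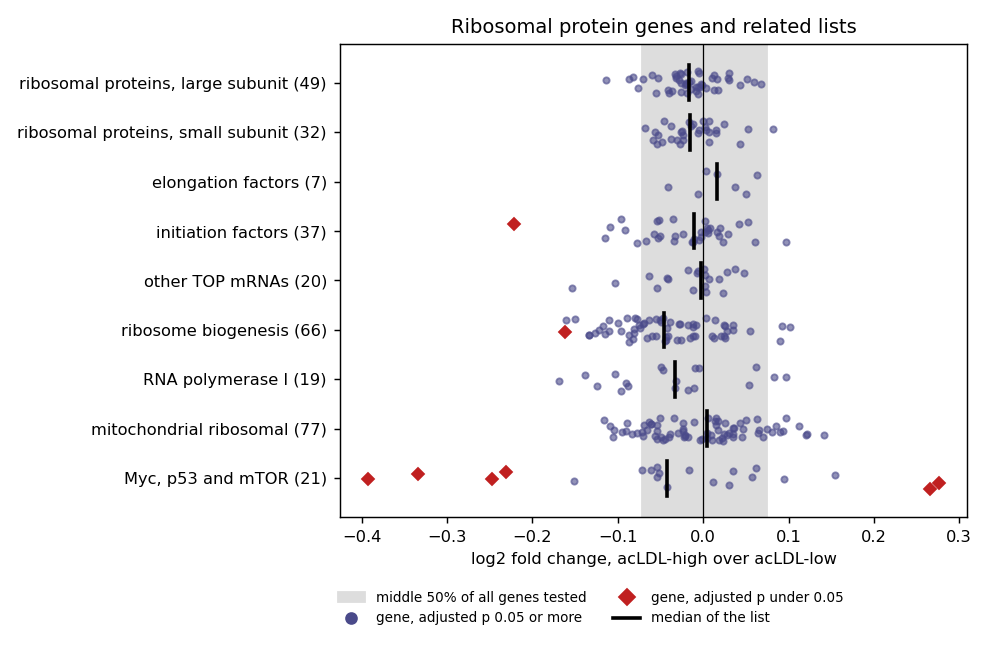
Log2 fold change (horizontal axis) of each tested gene by list, with called genes as red diamonds, list medians as black bars and the middle of all genes tested, from -0.072 to 0.075, shaded. The 49 and 32 ribosomal protein genes of the large and small subunit hold no red diamond, while Myc, Trp53, Ddit4 and 3 others do in the last list.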

How the data were processed

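RNA-Seq counts of 6 libraries, 3 acLDL-low and 3 acLDL-high, were used. The authors aligned paired reads to mm10 with STAR (2.5.2a), counted them per gene with featureCounts (1.4.3-p1) and deposited the raw counts for 53379 gene IDs. The annotation release and strand setting are not given in the sources used here. Of the values from 1 to 20 counts, 70.9% to 72.3% were even in each library, so a count may be a mate and not a pair. The authors' DESeq2 table was used for symbols and for the 15973 protein-coding genes only. Its mean normalized count is a signal divided by size factors that the authors computed, its log2 fold change and standard error are the authors' values on the log2 scale, its Wald statistic is a score deposited by the authors, and the authors deposited p-values, raw and adjusted, beside it. None of these is printed.

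Counts were compared with edgeR (4.0.16, R 4.3.3) by the quasi-likelihood test after filterByExpr and TMM scaling, with the replicate number as a block and Benjamini-Hochberg adjustment over 12572 genes at 0.05. The block follows the study's methods. Deviations from the group means correlated at 0.795, 0.846 and 0.799 within replicate numbers and at -0.557 to -0.0882 between numbers. Deviations sum to 0 in each group, so positive values within numbers push those between numbers below 0, and the contrast is partly fixed by the centring. Differences within numbers use log2 CPM with a prior count of 2. Alternatives were DESeq2 (1.42.0), other scalings and filters, GC and length trends, and each replicate left out. The members and lists were chosen with earlier results of these data known. Genes named were the 4 highest and 4 lowest fold changes, the 3 highest and 3 lowest levels per kb, paralogue pairs, members with roles of their own and up to 3 called genes per list, with Myc, Mdm2 and Cdkn1a. Lengths, overlaps and shared 50-base stretches come from GENCODE M21 on GRCm38, where 53274 IDs matched, and start windows from RefSeq. The fits were tested on simulated data. Some genes are not reported here by name.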

Additional observations from a re-analysis of the deposited data

How the results depend on the processing

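No ribosomal protein gene was called under any of the 13 alternative fits or at an adjusted p under 0.01, and the lowest adjusted p of a named member over 416 alternative values of 32 members was 0.0695, with library totals in place of TMM factors. Without the replicate block, 0 of 12329 genes were called by edgeR (45 at an unadjusted p under 0.05), 0 of 81 members were called or had an unadjusted p under 0.05, the members' median log2 fold change was -0.015 and the median interval reached 0.420 to either side. With the block the median interval reached 0.094, and the calls of Myc, Ddit4, Trp53, Eif4ebp1 and Noc2l were lost without it. The number of genes called in all was 932 without a filter on low counts, 869 without replicate 2 and 126 without replicate 3, against 597.

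The median over the members moved by less than the SD of its 3 within-number values (0.040) in each alternative, and lay between -0.030 and 0.0036 with a replicate left out. It was -0.034 with library totals, where 70 members were below 0 and 11 above and the median of all genes shifted to -0.017. The mean difference in share lay between -0.122 and -0.058 percentage points with a replicate left out was -0.085 over all genes of the count table and -0.049 over TMM-scaled library sizes, a denominator chosen after seeing the data. Signs changed in 39 of the 416 values, in 12 members, none of them called, and 1 value moved beyond the spread of its within-number differences (Rpl38, at 0.041 with the GC trend removed). Of 40 recounts of the 8 context lists, 9 were graded weaker or stronger. Smaller shifts were graded as the same. The Myc, p53 and mTOR list went from 6 called genes to 4 without replicate 1 and to 7 without replicate 2. Without replicate 1, 3 biogenesis genes and 1 gene of RNA polymerase I were called, and without replicate 2, 3 biogenesis genes. The median interval of the members was narrower than that of all genes, and the widest 2 were those of Rpl24 and Rpl36al, at 3.41 and 7.07 CPM.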
